A study of Mus musculus with 6 samples.

Results

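The 10 genes described here are 4 Wnt ligand genes (Wnt3, Wnt3a, Wnt5a and Wnt8a) and 6 genes known as targets of canonical Wnt signalling (Axin2, Sp5, Lef1, Tcf7, Nkd1 and Dkk1). They were chosen by name, with earlier results of these data known, and read through the probes whose RefSeq identifiers match them. They are 10 of 18749 genes that the arrays name by RefSeq identifier. All 10 matched, through 14 probes, with a pair of probes for each of Wnt3, Tcf7, Nkd1 and Dkk1. Total RNA was measured on 6 single-colour Agilent arrays, 3 of cells treated for 24 h with the solvent DMSO and 3 of cells treated for 24 h with TSA (trichostatin A), which blocks histone deacetylases. All samples were mouse cells of strain 129/Ola, labelled as day 3 cells differentiated from embryonic stem cells on gelatin in N2B27, a culture medium without serum that favours neural fates. The name of the cell line and the dose of TSA are not in the labels. The labels name independent experiments but do not pair the samples. A replicate number was taken as an experiment, and each of the 3 has a DMSO sample and a TSA sample on its own slide. The 2 samples always took the same positions on the slide, so the effect of position cannot be told apart from that of treatment.

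Canonical Wnt ligands are secreted proteins that bind Frizzled and LRP receptors and stop a destruction complex of Axin, APC and kinases from degrading beta-catenin. Beta-catenin then enters the nucleus and switches on target genes together with DNA-binding proteins of the TCF/LEF family. Several targets, among them Axin2, Nkd1 and Dkk1, encode inhibitors of the pathway and act as negative feedback. In the early mouse embryo, Wnt signals are needed to form the primitive streak and the mesoderm that leaves it, and in differentiating stem cells they favour these fates over neural ones.

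The sequences shown are the 250 bases upstream of the annotated start of Sp5 and Wnt3a, whose levels differed most between the treatments, and of Dkk1, the tested member whose direction was not the same on every slide. They come from RefSeq on build GRCm38.p6, which held such windows for 8 of the 10 genes, leaving Wnt5a and Wnt8a without one. The arrays were designed on another build, so probes have no position here. Each sequence reads 5′ to 3′ on the strand of its gene, and capitals mark matches to CTTTGA or its reverse complement TCAAAG, the core of the site that TCF/LEF proteins bind, extended where the longer CTTTGAT or ATCAAAG matched. The Sp5 window is chr2:70474673-70474922 on the + strand, the Wnt3a window chr11:59290752-59291001 on the - strand, and the Dkk1 window chr19:30549497-30549746 on the - strand.
Sp5: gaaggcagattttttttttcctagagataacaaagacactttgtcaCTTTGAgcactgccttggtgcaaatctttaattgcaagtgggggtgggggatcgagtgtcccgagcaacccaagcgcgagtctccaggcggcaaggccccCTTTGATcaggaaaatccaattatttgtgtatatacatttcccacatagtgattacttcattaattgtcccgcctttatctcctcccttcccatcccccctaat
Wnt3a: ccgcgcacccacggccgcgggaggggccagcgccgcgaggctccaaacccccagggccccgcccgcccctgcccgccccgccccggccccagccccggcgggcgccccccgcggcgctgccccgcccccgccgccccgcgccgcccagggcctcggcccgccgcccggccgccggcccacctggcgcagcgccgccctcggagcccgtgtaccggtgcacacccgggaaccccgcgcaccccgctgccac
Dkk1: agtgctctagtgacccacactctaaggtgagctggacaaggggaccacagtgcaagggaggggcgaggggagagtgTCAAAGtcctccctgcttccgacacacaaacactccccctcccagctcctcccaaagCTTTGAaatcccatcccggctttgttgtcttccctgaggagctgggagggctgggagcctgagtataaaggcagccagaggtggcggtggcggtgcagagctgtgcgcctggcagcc

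The Sp5 window held CTTTGAT starting 104 bases before the start and the shorter CTTTGA starting 204 bases before it. Of 32851 upstream windows of the same length, 3.21% held CTTTGAT or its reverse complement. The 8 genes had 12 windows, more than 1 for Lef1 and for Tcf7, and that of Sp5 alone held it. The shorter CTTTGA or TCAAAG, which the longer motif contains, was in 13.8% of all windows and in 3 of the 12. These were the windows of Dkk1 and Sp5 and 1 window of Lef1, chr3:131156044-131156293. The other Lef1 windows held none. In Dkk1 the matches started 174 and 117 bases before the start. The Wnt3a window held neither motif, which says only that these letters are not in this window. It was rich in G and C, at 87.6% with 41 CpG dinucleotides, against 46.0% and 6 for Sp5, 60.8% and 6 for Dkk1, and medians of 52.4% and 6 over all windows.

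The number of arrays, 3 per treatment, limits the precision of every value. Of 43379 spots per array, 61.1% to 72.3% were well above background and 0 saturated. TSA replicate 2 stood apart. Its 75th percentile of signal was 311 intensity units against 632 to 926 on the others, and it correlated with the other TSA arrays at 0.931 and 0.939 against 0.984 to 0.990 for the remaining pairs within a treatment. Levels are log2 of the processed signal over the 75th percentile of its array, and differences are TSA minus DMSO of these levels. Over all tested genes, the median difference was -0.03 on slide 1, 0.31 on slide 2 and 0.03 on slide 3. As checks of the cell type, the neural gene Sox1, the pluripotency gene Pou5f1, the primitive streak gene T and the endoderm gene Sox17 were all above background on every array. Their mean levels in DMSO were -4.66, 4.45, 1.58 and -0.92, so Sox1 was dim. The lowest levels well above background on the DMSO arrays were -6.57 to -5.67. RNA came from whole cultures, so more cells of a type and more RNA per cell cannot be told apart.

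In TSA, 9 of 9 tested members had a higher mean level than in DMSO, where 58.1% of the 14530 tested genes did. All 9 were also higher under each of the 5 other scalings and sources of values, while Dkk1 turned negative with array weights (-0.26). The differences ran from 0.28 for Tcf7 to 2.75 for Wnt3a, with a median of 0.55 against 0.08 over all tested genes. Member medians on slides 1, 2 and 3 were 0.57, 0.70 and 0.57. All of the 9 but Dkk1 were higher in TSA on each slide, which held for 32.6% of all tested genes. The treatments nevertheless overlapped in 9 of 9 members, because levels differed between experiments, while 16.4% of tested genes had every TSA array above every DMSO array and 8.29% had every TSA array below. The fit without a slide term called 0 of the 9 members (limma, adjusted p under 0.05, 1 of 9 at an unadjusted p under 0.05, as were 2168 of the 14530 tested genes), against 1.36% of all tested genes that rose and 0.0551% that fell. With the slide as a replicate block, which compares the treatments within each experiment, 2 members rose, Wnt3a and Sp5, against 3.2% of all tested genes, and 0 fell, against 0.145%. The tenth member, Wnt5a, was too dim to be tested. Without TSA replicate 2 the median difference of the members was 0.41, and without both arrays of slide 2 it was 0.50.

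**Figure D1:**
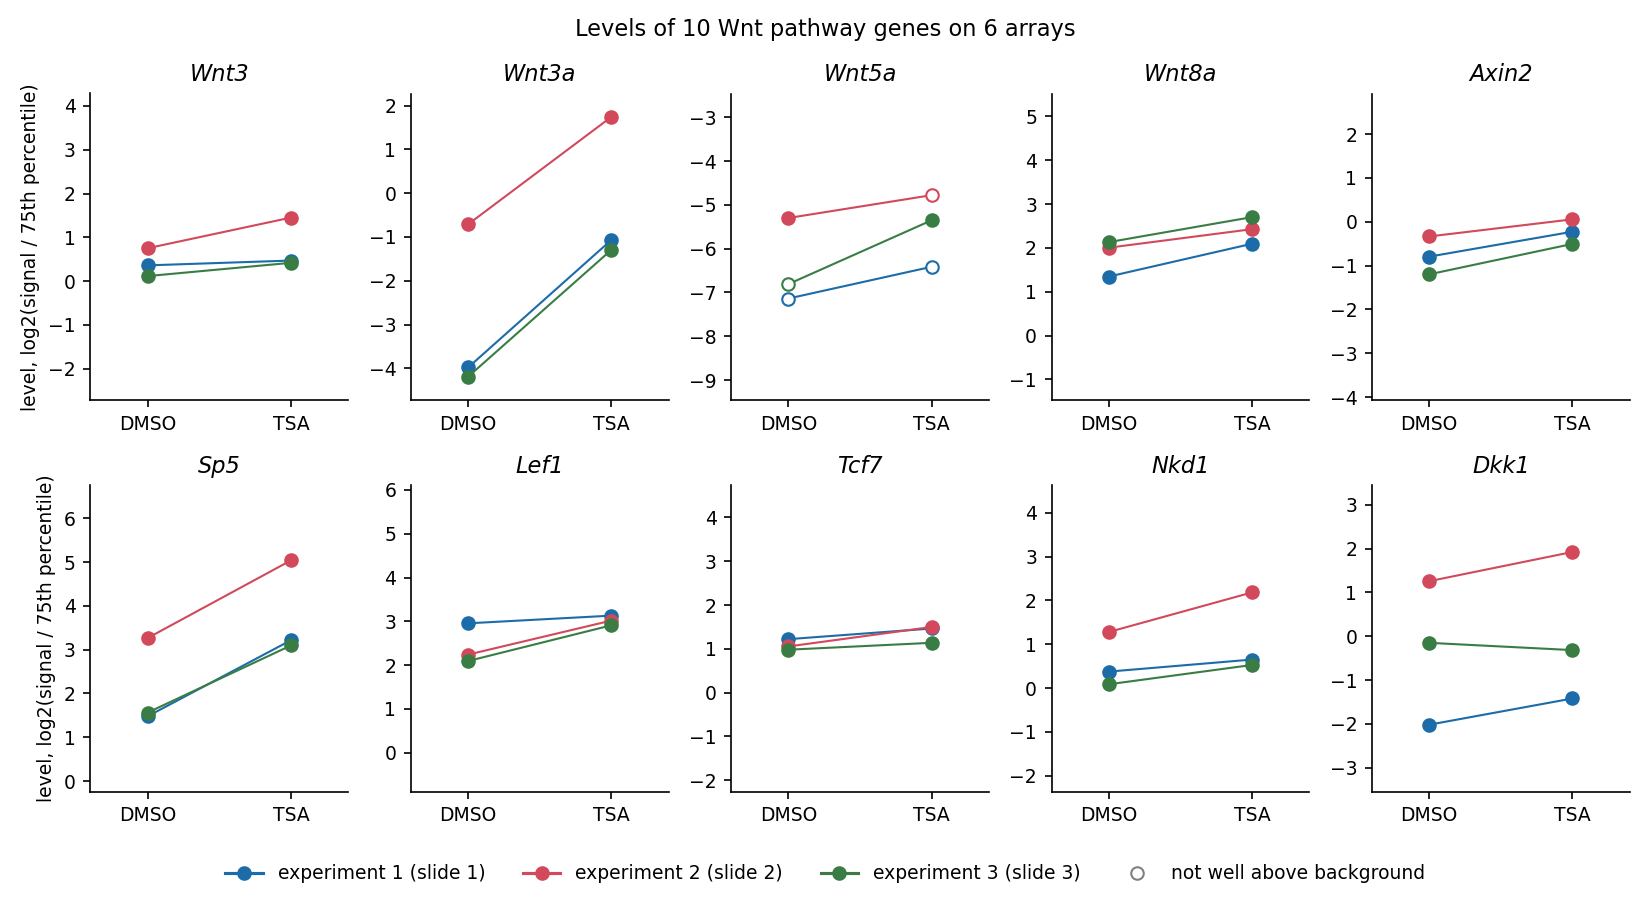
Level of each of the 10 genes, by its brightest probe, as log2 of the processed signal over the 75th percentile of the array (y axis, the same span of log2 units in every panel but a different start) in DMSO and TSA (x axis). Points are single arrays, lines join the DMSO and TSA arrays of an experiment, and open points are not well above background; the lines of Wnt3a and Sp5 run steeply and nearly in parallel, with experiment 2 far above the others in both treatments.

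Among the ligands, Wnt3a, which sustains the formation of paraxial mesoderm, differed most. Its level was -3.98, -0.71 and -4.19 in DMSO experiments 1, 2 and 3, and -1.07, 1.74 and -1.30 in TSA. Wnt3a was higher in TSA in every experiment, yet the DMSO sample of experiment 2 lay above the TSA samples of the other experiments. The difference was 2.91, 2.45 and 2.90 on the 3 slides, for a mean of 2.75 ± 1.17 (SE, n = 3 per treatment, 6.74-fold) and an adjusted p of 0.430 by limma. With the slide as a replicate block the same difference had an SE of 0.20, a 95% interval from 2.25 to 3.26 and an adjusted p of 0.0311. That call held in 7 of 9 settings of the blocked fit, counting the one reported. It ended with quantile normalization (limma adjusted p = 0.0663) and with no filter on dim probes (adjusted p = 0.0713). Background correction by normexp lowered the difference to 1.71. Leaving out both arrays of slide 2 gave 2.90, with an adjusted p of 0.0108 in the blocked fit.

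Wnt8a, a ligand of the primitive streak, stood at 1.35, 2.0 and 2.13 in DMSO and at 2.09, 2.43 and 2.70 in TSA. The treatments overlapped by a small margin, since the lowest TSA sample lay under the highest DMSO sample. The difference was 0.75, 0.42 and 0.57 on the 3 slides and 0.58 ± 0.29 in all (limma adjusted p = 0.520, and 0.183 with the block, where its interval ran from 0.12 to 1.05). Wnt3, the ligand that starts formation of the streak, stood at 0.36, 0.75 and 0.12 in DMSO and at 0.47, 1.45 and 0.42 in TSA. Every TSA sample was above its DMSO partner, by 0.11, 0.70 and 0.30. The Wnt3 difference of 0.37 ± 0.35 did not pass (limma adjusted p = 0.694, and 0.362 with the block), and its second probe gave 0.35 ± 0.31 (adjusted p = 0.684, and 0.349 with the block). Without TSA replicate 2, which leaves DMSO replicate 2 without its partner, the Wnt3 difference was 0.04. With both arrays of a slide left out it ran from 0.21 to 0.50.

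Wnt5a, a ligand better known for signalling without beta-catenin, was near the limit of detection. It was well above background on 1 of 3 DMSO arrays, at -5.30 in experiment 2, and on 1 of 3 TSA arrays, at -5.35 in experiment 3. On the remaining arrays its signal was not well above background, so no fold is given.

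Of the targets, Sp5, which encodes a zinc finger transcription factor, differed most. Its level was 1.48, 3.27 and 1.56 in DMSO and 3.22, 5.04 and 3.1 in TSA. As for Wnt3a, experiment 2 was highest in both treatments, and its DMSO sample lay above the TSA samples of experiments 1 and 3. The Sp5 difference was 1.74, 1.77 and 1.53 on the 3 slides and 1.68 ± 0.69 in all (3.20-fold, limma adjusted p = 0.408). In the blocked fit its SE was 0.18, its 95% interval 1.22 to 2.14 and its adjusted p 0.0348. The blocked call ended with quantile normalization (limma adjusted p = 0.0699) and with no filter (adjusted p = 0.0742). It held in the other 7 of 9 blocked settings, counting the one reported. Without slide 2 the difference was 1.63, with an adjusted p of 0.0143 in the blocked fit. Leaving out single arrays breaks the pairing, and without TSA replicate 2 the unblocked difference was 1.05 for Sp5 and 1.78 for Wnt3a.

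Axin2, a scaffold of the destruction complex that responds to the pathway in most tissues, stood at -0.80, -0.33 and -1.20 in DMSO and at -0.23, 0.06 and -0.50 in TSA. It was higher in TSA by 0.57, 0.39 and 0.70 within the experiments, while the treatments overlapped. The difference was 0.55 ± 0.29 (1.47-fold, limma adjusted p = 0.539, and 0.199 with the block, where the interval ran from 0.09 to 1.01). Nkd1, an inhibitor that binds Dishevelled inside the cell, stood at 0.38, 1.28 and 0.09 in DMSO and at 0.65, 2.18 and 0.53 in TSA. Experiment 2 was again highest in both treatments. The Nkd1 difference was 0.54 ± 0.53 (limma adjusted p = 0.705, and 0.252 with the block), and that of its second probe 0.44 ± 0.54. Without TSA replicate 2 alone, which breaks the pairing, these were 0.01 and -0.06. With both arrays of a slide left out they ran from 0.36 to 0.67 and from 0.35 to 0.55.

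Dkk1, a secreted inhibitor that takes LRP receptors away from Wnt ligands, varied more between experiments than between treatments. It stood at -2.02, 1.26 and -0.15 in DMSO and at -1.42, 1.92 and -0.32 in TSA. Its order, with experiment 1 lowest and experiment 2 highest, was the same in both treatments. The difference was 0.60 and 0.67 on slides 1 and 2 and -0.17 on slide 3, and 0.37 ± 1.08 in all (limma adjusted p = 0.900, and 0.425 with the block). The second Dkk1 probe gave 0.64, -0.29 and -0.32 on the slides and 0.01 ± 1.01 in all, so neither probe gave a direction for Dkk1 that held on every slide. The sign of the first probe turned without TSA replicate 2 (-0.56), without DMSO replicate 1 (-0.49) and with array weights (-0.26). Leaving out a single array breaks the pairing. With both arrays of a slide left out, the first probe gave 0.22 to 0.63 and the second -0.31 to 0.17.

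Lef1 and Tcf7 encode the DNA-binding partners through which beta-catenin acts, and both are targets too. Lef1 stood at 2.95, 2.24 and 2.09 in DMSO and at 3.13, 3.02 and 2.91 in TSA. The TSA samples lay close together, and DMSO replicate 1 lay among them. The Lef1 difference was 0.18, 0.78 and 0.82 on the 3 slides and 0.59 ± 0.28 in all (limma adjusted p = 0.489, and 0.235 with the block, where the interval ran from 0.04 to 1.14). Tcf7 stood at 1.22, 1.05 and 0.98 in DMSO and at 1.46, 1.5 and 1.14 in TSA by its brighter probe. TSA replicate 3 lay between the DMSO samples. That probe differed by 0.28 ± 0.21 (limma adjusted p = 0.642, and 0.415 with the block). The second Tcf7 probe stood at -1.55, -1.85 and -1.73 in DMSO and at -1.28, -1.18 and -1.46 in TSA. It was the only one of the 13 tested member probes whose treatments did not overlap, at 0.40 ± 0.20 (limma adjusted p = 0.514, and 0.316 with the block).

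**Figure D2:**
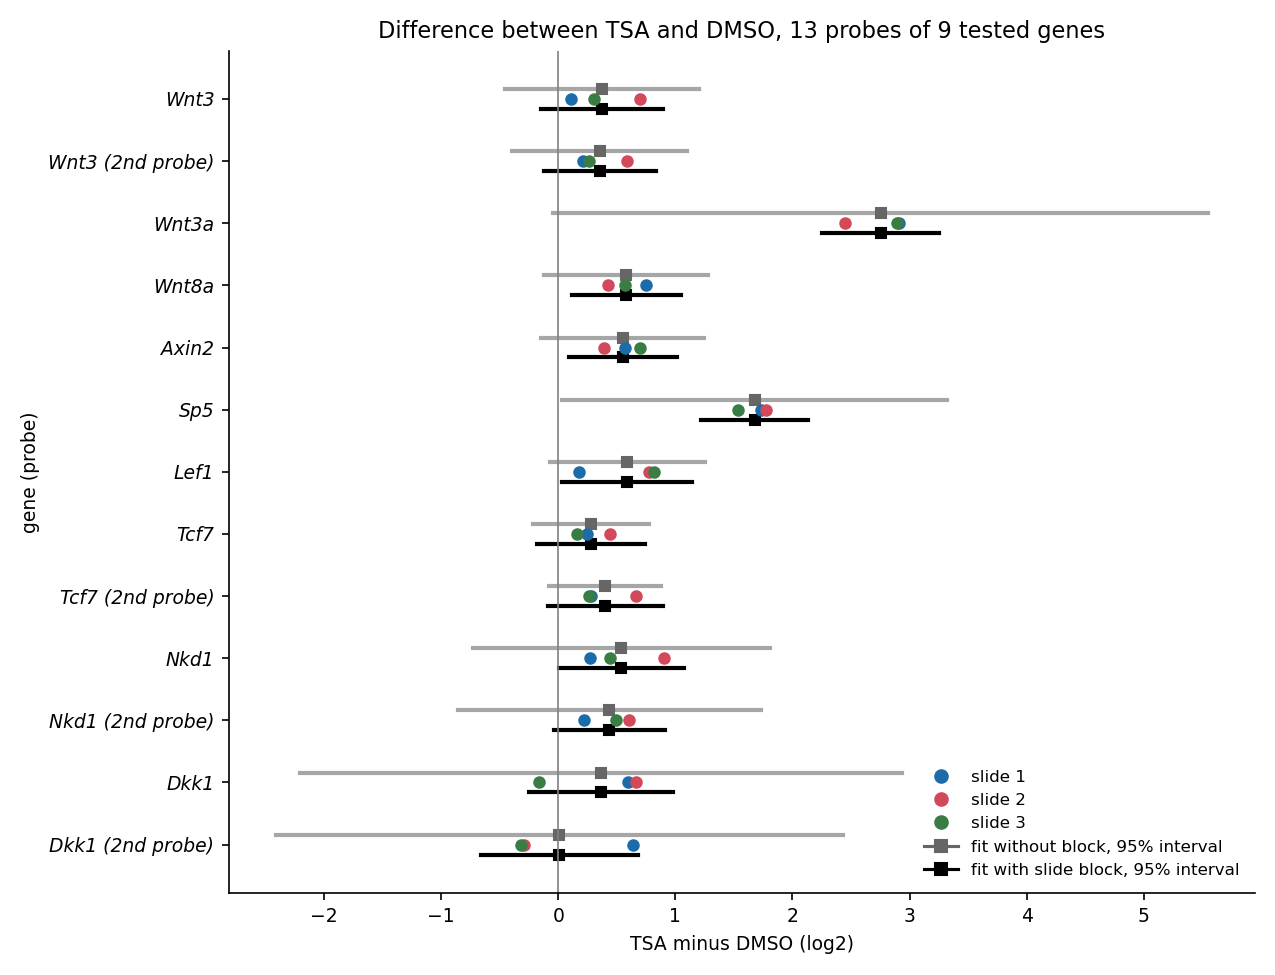
TSA minus DMSO difference on the log2 scale (x axis) of the 13 tested probes of 9 genes (y axis). Circles are the differences on slides 1, 2 and 3, squares are their mean, and bars are 95% intervals from the fit without a block (grey) and with the slide as a block (black); with the block, the intervals of Wnt3a and Sp5 run from 2.25 to 3.26 and from 1.22 to 2.14, while the means of the other genes are at most 0.59.

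Several of these genes also stood apart in experiment 2, under either treatment. Against the mean of experiments 1 and 3, Wnt3a was higher in experiment 2 by 3.37 in DMSO and 2.92 in TSA. Dkk1 was higher there by 2.34 and 2.79, Sp5 by 1.74 and 1.88, and Nkd1 by 1.05 and 1.59. Wnt3 (0.51 and 1.01) and Axin2 (0.66 and 0.42) had smaller values of the same sign in both treatments. The other genes lay closer to 0, with 0.27 and 0.03 for Wnt8a, -0.28 and 0.00 for Lef1, and -0.05 and 0.20 for Tcf7. Experiment 2 was the highest of the 3 in 6 of 9 members in DMSO and in 7 of 9 in TSA. The member medians were 0.66 in DMSO and 1.01 in TSA, and the medians over all tested genes 0.06 and 0.37. The ligand Wnt3a and the target Sp5 thus differed at least as much between experiment 2 and the others in DMSO alone as between the treatments. With 1 DMSO sample per experiment, this difference has no replicate and no test. Each experiment had its own slide, so effects of experiment and slide cannot be told apart.

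**Figure D3:**
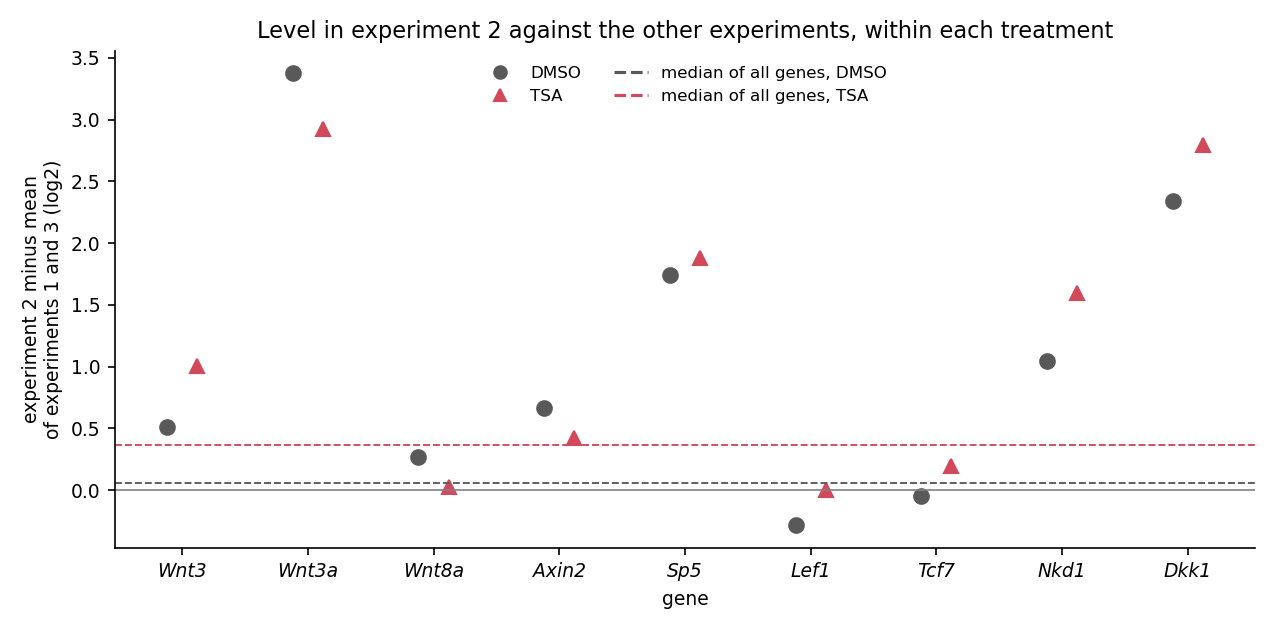
Level in experiment 2 minus the mean of experiments 1 and 3 on the log2 scale (y axis) for the 9 tested genes (x axis), in DMSO (circles) and in TSA (triangles), each from single arrays. Dashed lines are the medians over all tested genes, 0.06 in DMSO and 0.37 in TSA; Wnt3a, Dkk1, Sp5 and Nkd1 lie above both lines in both treatments.

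Markers of the cell types that such cultures can hold were read beside these values. The summed signal of 10 primitive streak markers, in multiples of the 75th percentile, was 18.8 to 39.6 in DMSO and 32.8 to 90.5 in TSA, and 10 of 10 were above background on all arrays. That of 9 paraxial mesoderm markers was 5.26 to 11.6 in DMSO and 12.2 to 57.8 in TSA. In each of these lists 0 rose without the block and 3 rose with it, against 1.36% and 3.2% of all tested genes. Experiment 2 had the highest sum in both treatments: 39.6 in DMSO and 90.5 in TSA for the streak list, and 11.6 and 57.8 for the paraxial list. The streak gene T gave 1.57 ± 0.71 (limma adjusted p = 0.468, and 0.0666 with the block). The sum of 10 early neural markers was 11.7 to 14.0 in DMSO and 9.80 to 11.4 in TSA, with 0 called in either fit. The 9 tested had a median difference of -0.38, while Sox1 gave 0.25 ± 0.35. The sum of 10 definitive endoderm markers was 2.27 to 23.1 in DMSO and 2.40 to 21.8 in TSA, again highest in experiment 2, and Sox17 gave 0.22 ± 1.18. The sum of 10 pluripotency markers was 58.4 to 105 in DMSO and 63.8 to 172 in TSA, with 0 called in either fit. Their median difference was 0.37, while Pou5f1 gave -0.50 ± 0.54. A list of 8 fibroblast markers summed to 5.44 to 8.01 in DMSO and 10.8 to 15.1 in TSA, with Lum above background on no array. The 7 tested had a median difference of 0.88, with 0 rises, and 1 with the block. Markers of cells like those of the early cleavage embryo differed most, with a sum over 6 genes of 0.333 to 0.575 in DMSO and 3.26 to 6.5 in TSA, a median difference of 3.15 and 5 rises in either fit. The sum of 8 neural crest markers was 2.08 to 2.89 in DMSO and 3.49 to 5.83 in TSA, with 1 rise, and 2 with the block. The sum of 8 trophectoderm markers was 55.8 to 155 in DMSO and 71.6 to 291 in TSA, with 0 rises, and 1 with the block. That of 6 primed epiblast markers was 121 to 178 in DMSO and 131 to 169 in TSA, with 0 called in either fit. The part of these cell types in the values of the 10 genes was not tested.

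The rest of the pathway was read from lists of 105 further genes by role, of which 101 had a named probe and 95 were tested. Without the block 2 of the 95 rose, Wnt2 and Wif1, and 0 fell, against 1.36% and 0.0551% of all tested genes. With the block 8 rose and 0 fell, against 3.2% and 0.145% of all tested genes. The count of 8 was 0 with quantile normalization or no filter, 2 with the authors' table and 4 with normexp. The median difference of the 95 was 0.20, against 0.55 for the members and 0.08 over all tested genes.

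The mean of all 13 tested genes among the other Wnt ligands was higher in TSA, their median difference was 0.57, and 8 of 13 were higher on every slide. Over all tested genes, 58.1% had a higher mean in TSA and 32.6% were higher on every slide. Under other scalings 11 to 13 of the 13 were higher, with Wnt7b or Wnt10b turning negative and medians of 0.18 (normexp) to 0.58, and with array weights 10 were. Their medians on slides 1, 2 and 3 were 0.66, 0.86 and 0.37. Wnt2, a ligand of the developing heart, lung and placenta, was the one that rose. Its level was -5.35, -5.09 and -4.54 in DMSO and -2.77, -2.25 and -2.97 in TSA. The treatments did not overlap, and the difference was 2.33 ± 0.31 (5.02-fold, limma adjusted p = 0.0350, and 0.0407 with the block). With all arrays kept, the Wnt2 call ended with normexp (0.78, adjusted p = 0.107), quantile normalization (adjusted p = 0.0566), the authors' table (adjusted p = 0.0578) and no filter (adjusted p = 0.0634), and the blocked call ended under the same settings (adjusted p from 0.0612 to 0.0876). It also ended with any single array left out but TSA replicate 2 (adjusted p from 0.0758 to 0.190, and 0.0269 without TSA replicate 2). Wnt7a, next by its unadjusted p, was well above background on 2 of 3 DMSO arrays. It gave 1.56 ± 0.48 (limma adjusted p = 0.238, and 0.0541 with the block). Under other settings with all arrays kept, its difference came down to 0.36.

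Receptors, secretion factors and R-spondins showed no common direction. Of 21 tested, 9 had a higher mean in TSA and 12 a lower one (11 higher with array weights), the median was -0.10 (0.01 with array weights), and 0 rose or fell in either fit (2 at an unadjusted p under 0.05 in limma without the block). Fzd9, a Frizzled receptor, gave 0.90 ± 0.28 (adjusted p = 0.255), and Lgr6, a receptor of R-spondins, 0.93 ± 0.33 (adjusted p = 0.324). Ror1, a receptor tyrosine kinase that binds Wnt5a, gave -0.88 ± 0.41 (limma adjusted p = 0.484). Lgr6 was well above background on 2 of 3 DMSO arrays and Ror1 on 2 of 3 TSA arrays. Under other settings with all arrays kept, their differences came down to 0.15 and -0.29. Fzd5 gave -0.50 by its brighter probe and 0.18 by its second.

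Of 17 tested antagonists that act outside the cell or at its membrane, 11 had a higher mean in TSA, against 58.1% of all tested genes. The median of the 17 was 0.24. Wif1, which binds Wnt proteins directly, was at -6.06, -5.19 and -5.38 in DMSO, where 2 of 3 arrays were above background, and at -1.5, -2.08 and -2.41 in TSA. The treatments did not overlap, and the difference was 3.55 ± 0.34 (11.7-fold, limma adjusted p = 0.0235, and 0.0329 with the block). Normexp lowered the Wif1 difference to 1.16, and the call ended with any single array left out but TSA replicate 2 (adjusted p from 0.0600 to 0.162, and 0.0198 without TSA replicate 2). The blocked call ended with quantile normalization (adjusted p = 0.0699) and with no filter (adjusted p = 0.0713). Dkk3, a relative of Dkk1, rose in the blocked fit alone, by 1.27 (adjusted p = 0.0473, and 0.0710 without the block). Sfrp1 and Sfrp2, secreted proteins related to Frizzled, gave -0.44 ± 0.27 (adjusted p = 0.599) and -0.39 ± 0.22 (adjusted p = 0.574).

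Genes of the machinery inside the cell had medians near 0. Among 16 tested genes of the destruction complex and Dishevelled, 6 had a higher mean in TSA (2 with array weights), 7 were lower on every slide, against 21.4% of all tested genes, and 0 rose or fell in either fit (1 at an unadjusted p under 0.05 in limma without the block). Their median was -0.08 (-0.16 with median centring). Csnk1a1 and Gsk3b, the kinases that mark beta-catenin for degradation, gave -0.46 ± 0.26 (adjusted p = 0.575) and -0.39 ± 0.23 (adjusted p = 0.589). Nkd2, a relative of Nkd1, gave 0.84 ± 0.30 (adjusted p = 0.314), and the scaffold gene Amer1 0.20 ± 0.22 (adjusted p = 0.723). Among 12 tested nuclear effectors and co-repressors, 6 had a higher mean, the median was 0.01 (-0.07 with median centring), and 0 rose or fell in either fit (2 at an unadjusted p under 0.05 in limma without the block). The other TCF genes had mean differences opposite in sign to those of Lef1 and Tcf7. These were -0.58 ± 0.21 for Tcf7l2 (limma adjusted p = 0.347) and -0.36 ± 0.28 for Tcf7l1 (adjusted p = 0.661). Tcf7l2 was lower in TSA on every slide, while Tcf7l1 gave -0.84, 0.20 and -0.43 on slides 1, 2 and 3. The signs were not tested against each other. Pygo1, a co-activator, gave 0.74 ± 0.28 (limma adjusted p = 0.374), and Ctnnbip1, an inhibitor of beta-catenin, 0.36 ± 0.34 (adjusted p = 0.692). Pygo1 was well above background on 2 of 3 DMSO arrays. Its difference came down to 0.14 under other settings with all arrays kept.

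Other canonical targets had a median difference of 0.62. Of 16 tested, 13 had a higher mean in TSA (12 with median centring) and 11 were higher on every slide, against 58.1% and 32.6% of all tested genes. None passed without the block in limma (0 called, 4 at an unadjusted p under 0.05). With the block 5 rose, against 3.2% of all tested genes: Cdx1, Cdx2, Cdx4, Msgn1 and Tbx6. These encode transcription factors of the posterior body and the paraxial mesoderm. Msgn1 and Tbx6 are also in the paraxial mesoderm marker list, and T and Fgf8 are in the streak list, so those counts share genes. Msgn1 was at -7.09, -4.34 and -5.61 in DMSO, above background on 2 of 3 arrays, and at -3.25, 0.46 and -2.64 in TSA. Its TSA sample of experiment 2 lay far above the rest, and its difference was 3.84, 4.81 and 2.97 on the slides (blocked adjusted p = 0.0311). Cdx4 was at -7.58, -5.45 and -6.94 in DMSO, above background on 1 of 3 arrays, and at -5.00, -3.17 and -4.62 in TSA, with a blocked adjusted p of 0.0311. The blocked calls of Msgn1 and Cdx4 each held in only 4 of 8 blocked settings, counting the one reported. With normexp both ended (adjusted p = 0.157 for Msgn1 and 0.156 for Cdx4), at differences of 1.57 and 0.43. They also ended with quantile normalization (adjusted p = 0.0739 and 0.0663), the authors' table (0.0758 and 0.0897) and no filter (0.0713 for each). Cdx1, Cdx2 and Tbx6 are outside the rule for naming genes and were named after their values were seen. Their differences were 1.61, 1.46 and 3.03 (blocked adjusted p = 0.0407, 0.0392 and 0.0363). Their blocked calls held in 5, 6 and 7 of 9 blocked settings, counting the one reported. The lowest value of the list was -0.38 ± 0.30 for Fosl1 (adjusted p = 0.662).

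**Figure D4:**
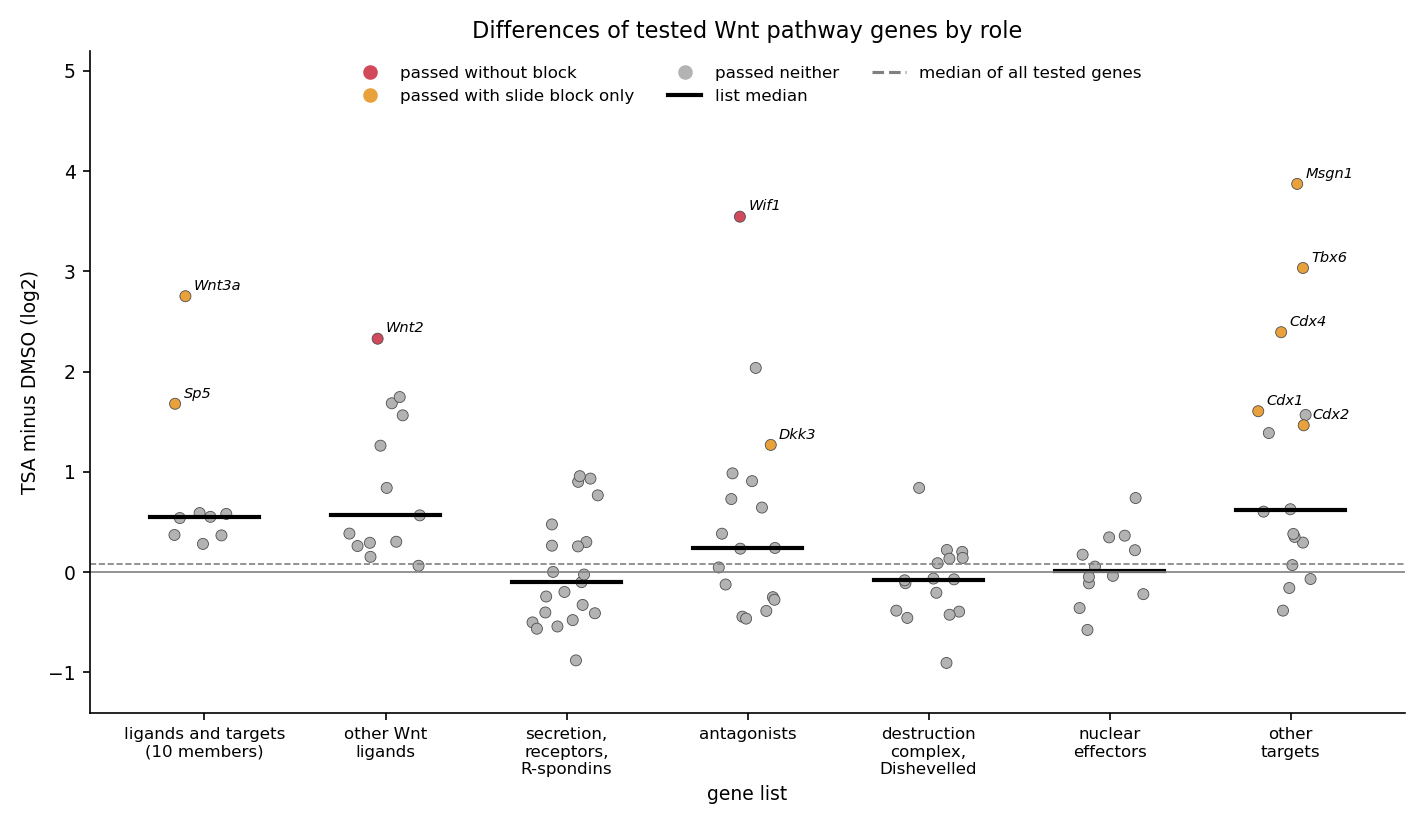
TSA minus DMSO difference on the log2 scale (y axis) of each tested gene of 7 lists (x axis), with points spread sideways for legibility. Black lines are list medians and the dashed line is the median of all tested genes, 0.08; red points passed limma without the block, orange points only with it. The members, the other ligands and the other targets have medians of 0.55, 0.57 and 0.62, while the receptors, the destruction complex and the nuclear effectors have medians of -0.10, -0.08 and 0.01, of which the first turned to 0.01 with array weights and the last to -0.07 with median centring.

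A further 6 genes of these lists, Wnt2b, Wnt8b, Rspo2, Rspo4, Dkk2 and Dkk4, were too dim to be tested. Lrp5, Bcl9, Ccnd1 and Fgf4 lacked a named probe and were not analysed here.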

How the data were processed

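Gene expression was measured in 3 DMSO and 3 TSA samples on Agilent single-colour arrays. Per the file headers, the deposited values are spot intensity values, with a processed signal already background-subtracted by the scanner software (Agilent Feature Extraction 10.7, per the submitters' processing notes) and not scaled between arrays. The authors' series table holds log2 values whose normalization is not given in the sources used here; its columns have medians of 6.31 to 6.34, share a maximum of 19.1, and correlate at 0.982 to 0.992 with log2 of the processed signal, so its direction and log base follow but its scaling is unknown. It served as an alternative.

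Control spots and outlier spots (57 to 84 per array) were left out, signals were turned into log2, each array's 75th percentile was subtracted, and spots of a probe were averaged. The 28166 probes well above background on at least 3 of 6 arrays were tested with limma 3.58.1 in R 4.3.3 (lmFit and eBayes, two-sided, Benjamini-Hochberg over all tested probes, threshold 0.05). Errors are moderated standard errors. Where a gene had several tested probes, the brightest on average was read. RefSeq identifiers named 27479 of 41174 probes. The pathway genes named are those that passed without the block and, per list, the pair with the smallest unadjusted p in each direction; key markers and all members are named too. The values of 1 gene that the rule names are not reported here. The members and lists were chosen with earlier results of these data known.

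The replicate number matches the slide and was taken as the experiment. Deviations from the group means correlated at 0.484, 0.614 and 0.585 between arrays of a slide and at -0.568 to 0.0916 between slides. Samples of a number were therefore treated as pairs, and blocked values are given. Alternatives were other scalings, filters and variance models, array weights, the mean over a gene's probes, and arrays or slides left out; combinations with the block were added after seeing the data. Normexp (offset 50) with quantile normalization ran on median spot signals, since the files give no mean signal. The fit without the block was run on simulated data drawn without a slide effect. The blocked fit was not tested in this way. Motifs were searched on both strands. Python 3.11.15, numpy 2.4.6, pandas 2.3.3 and matplotlib 3.10.9 were used.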

Additional observations from a re-analysis of the deposited data

How the results depend on the processing

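Without the block, 0 members passed under every setting run, and over all probes 269 were called with 2 of the other pathway genes. Over all probes the counts were 140 with normexp, 156 with quantile normalization, 144 with median centring, 149 with the authors' table, 58 with no filter and 1650 with array weights. The other pathway genes gave 1 with normexp, quantile normalization, the authors' table, no filter or the filter on all 6 arrays, and 5 with array weights. Leaving out 1 array gave 0 to 630 probes, 0 to 2 other pathway genes and a member median of 0.41 to 0.77; leaving out slide 1, 2 or 3 gave 0 and 0. The member median of 0.55 was 0.43 with normexp, 0.47 with median centring and 0.43 with array weights.

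The replicate block gave 659 probes, 2 members and 8 other pathway genes. The blocked counts over probes, members and other pathway genes were 839, 2 and 10 with median centring, 1177, 2 and 9 with the filter on all 6 arrays, 635, 2 and 8 with trend and robust moderation, and 5879, 5 and 35 with array weights, where Wnt8a, Axin2 and Lef1 joined Wnt3a and Sp5. They were 0, 0 and 0 with quantile normalization and with no filter. With normexp 2 members and 4 others passed, and 2 members and 2 others with the authors' values. Without slide 1 the blocked counts were 1894, 2 and 13, without slide 2 they were 3057, 4 and 18, with Wnt8a and Axin2 added, and without slide 3 they were 1358, 2 and 11. With the scaling, filter and arrays of the report, the block changed the calls of Wnt3a and Sp5 alone among the members.

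Signs turned in few places. The second Dkk1 probe gave -0.12 with normexp, -0.079 with quantile normalization, -0.071 with median centring and -0.092 with the authors' table, blocked or not, -0.41 with array weights, -0.050 with array weights and the block, and -0.31 without slide 1, blocked or not. With 1 array left out it ran from -0.91 (without DMSO replicate 1) to 0.88, and was -0.71 without TSA replicate 2. The first Dkk1 probe gave -0.26 with array weights and -0.56 (without TSA replicate 2) to 1.15 with 1 array left out. The second Nkd1 probe gave -0.062 (without TSA replicate 2) to 0.85 with 1 array left out. A single array left out breaks the pairing of its slide. The cause of the sign changes was not tested. Signal over background limits Wnt5a, Cdx4, Msgn1, Wif1, Wnt7a, Lgr6, Pygo1 and Ror1.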
